A study of Mus musculus with 12 samples.

Results

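The genes described here are 180 mouse Zfp genes of the whole jejunum, named Zfp and a number after the zinc finger proteins they encode. They were selected on 2 conditions, a symbol made of Zfp and digits alone and a mean of at least 5 in the 3 wild-type libraries, so the wild-type level chose them. The deposited table lists 23988 genes, of which 333 carry such a symbol, and the other 153 lay below a wild-type mean of 5. Levels are in the table's unit fpm, fragment counts divided by a factor for each library and not by gene length, so levels are compared between libraries for 1 gene and not between genes. Just inside the threshold stood Zfp963 at a wild-type mean of 5.03, Zfp688 at 5.06 and Zfp414 at 5.17 fpm, and just outside it Zfp937 at 4.99, Zfp59 at 4.94 and Zfp831 at 4.88 fpm.

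The study deleted the recycling endosome GTPases Rab11a and Rab11b in mice, alone and together, and sequenced RNA of the jejunum in 4 groups of 3 libraries. WT mice were wild type by their label. AKO mice were Rab11aL/L, VillinCreER+, a floxed Rab11a allele cut by a tamoxifen-activated Cre that the Villin promoter drives in intestinal epithelium. BKO mice were Rab11b-/-, null in every cell, and DKO mice were Rab11aL/L, Rab11b-/-, VillinCreER+. All groups were adult, were dosed with tamoxifen (40 mg/kg) and were sampled after 2 days. The labels do not say whether WT or BKO mice carried the floxed allele or the Cre, nor whether the 3 libraries of a group came from separate animals, so the p-values measure the spread between these libraries. Whole jejunum also holds cells that the Cre does not reach, and in such tissue fewer cells of a type and less RNA per cell cannot be told apart.

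Most Zfp genes encode C2H2 proteins, in which each finger holds a zinc ion between a pair of cysteines and a pair of histidines and a row of fingers reads a stretch of DNA. Many mouse members also carry a KRAB domain, which binds the corepressor Trim28 and through it brings Setdb1 and heterochromatin to retrotransposons and imprinted loci. These KRAB genes lie in clusters of close copies. A few genes with the same name do other work: Zfp36 (tristetraprolin) has CCCH fingers and sends mRNAs with AU-rich elements to decay, and others act on ribosomes, splicing or the mitotic spindle.

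The promoters of Zfp36 and Zfp37, which rose in DKO against AKO, and of Zfp768 and Zfp110, which fell, are shown as examples of both directions, chosen after their values were seen. Each line gives the 250 bases before the gene's start from RefSeq (build GRCm38.p6), 5′ to 3′ on the gene's own strand, minus for Zfp36, Zfp37 and Zfp768 and plus for Zfp110, with motifs found on either strand in capitals. The motifs marked were the GC box GGGCGG, the box CCAAT and the CArG box, the core of the serum response element.
Zfp36, chr7:28379229-28379478: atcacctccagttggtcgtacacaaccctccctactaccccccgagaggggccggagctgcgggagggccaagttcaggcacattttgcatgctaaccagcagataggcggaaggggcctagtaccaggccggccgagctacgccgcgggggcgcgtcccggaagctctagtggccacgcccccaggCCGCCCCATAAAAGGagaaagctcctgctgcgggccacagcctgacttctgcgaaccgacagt
Zfp37, chr4:62208547-62208796: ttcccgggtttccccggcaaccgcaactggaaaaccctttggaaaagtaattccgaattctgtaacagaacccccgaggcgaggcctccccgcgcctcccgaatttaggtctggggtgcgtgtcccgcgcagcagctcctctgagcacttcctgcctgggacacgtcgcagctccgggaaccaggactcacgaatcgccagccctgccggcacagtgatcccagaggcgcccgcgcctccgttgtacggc
Zfp768, chr7:127345315-127345564: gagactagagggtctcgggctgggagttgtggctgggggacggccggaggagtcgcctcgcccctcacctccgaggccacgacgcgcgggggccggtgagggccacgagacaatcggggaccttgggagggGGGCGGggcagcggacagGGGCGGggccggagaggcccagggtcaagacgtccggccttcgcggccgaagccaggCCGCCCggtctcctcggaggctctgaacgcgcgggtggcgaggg
Zfp110, chr7:12834511-12834760: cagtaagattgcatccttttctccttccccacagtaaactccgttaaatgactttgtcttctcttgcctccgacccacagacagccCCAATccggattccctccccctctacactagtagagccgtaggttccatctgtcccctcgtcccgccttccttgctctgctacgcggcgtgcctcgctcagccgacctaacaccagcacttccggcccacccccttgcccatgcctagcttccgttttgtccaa

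The Zfp36 promoter held 1 GC box that overlaps 1 CArG box by a single C, the Zfp768 promoter 3 GC boxes and the Zfp110 promoter 1 CCAAT box, while the Zfp37 promoter held 0 of these motifs. RefSeq gave a window of 250 bases before to 50 after the start for 147 of the 180 genes. A GC box occurred in 52.4% of these windows, in 50% of the 58 windows of genes that fell in DKO against AKO, and in 35.9% of all 27025 RefSeq windows. CCAAT boxes occurred in 49.0%, 50% and 37.9% of the same windows, CArG boxes in 2.04%, 3.45% and 1.57%, and TATA boxes (TATAAA) in 7.48%, 8.62% and 14.2%. These matches are letters in a window and are not shown to be bound.

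Libraries held 19200380 to 29828587 recovered fragments. Rab11b averaged 27.0 ± 4.23 fpm in BKO and 22.9 ± 1.55 in DKO against 116 ± 5.07 in WT (SD, n = 3). Rab11a averaged 59.4 ± 9.43 fpm in AKO and 106 ± 8.48 in DKO against 186 ± 3.87 in WT, so the drop was smaller in DKO than in AKO (log2 difference 0.83, limma adjusted p = 0.00254). BKO replicate 3 stood apart from its group: its score was 52.8 on principal component 1 (58.5% of the variance), with DKO libraries at 64.1 to 71.6 and all others at -36.7 to -27.2. Results that rest on it are given with and without it.

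The Zfp genes as a group were lower in DKO tissue. Their summed level was 3322, 3247 and 3333 fpm in the DKO libraries. It was 3765, 3983 and 3843 fpm in AKO, 3928, 3889.7 and 3866 fpm in BKO, and 3897, 3836 and 3762 fpm in WT. All 3 DKO libraries lay below all 9 others, which overlapped among themselves. As a share of recovered fragments the genes took 0.341 to 0.358% in DKO, 0.3598 to 0.377% in BKO, 0.377 to 0.409% in AKO and 0.377 to 0.388% in WT.

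Taken gene by gene against the AKO mean, the median Zfp gene stood at -0.44, -0.41 and -0.35 in the DKO libraries on the log2(value + 1) scale. The median of the other tested genes lay between -0.01 and 0.02 in every library. That flat median largely follows from the scaling of the deposited values. Rescaling by the median ratio between libraries shifted DKO against AKO by a median of -4.79e-05, and scaling by total reads by 0.046. The median Zfp gene stood at -0.01 and -0.04 in BKO replicates 1 and 2 and at -0.19 in BKO replicate 3. In WT it ranged from -0.03 to 0.01. For 132 of the 180 genes (73.3%) the lowest of the 12 libraries was a DKO library. Over the 13493 tested genes with a single lowest library that share was 35.1%. For the Zfp genes the lowest was a BKO library 24 times (13.3%), against 33.9% of those tested genes. It was an AKO or WT library 12 times each (6.67%), against 19.7% for AKO and 11.3% for WT.

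**Figure D1:**
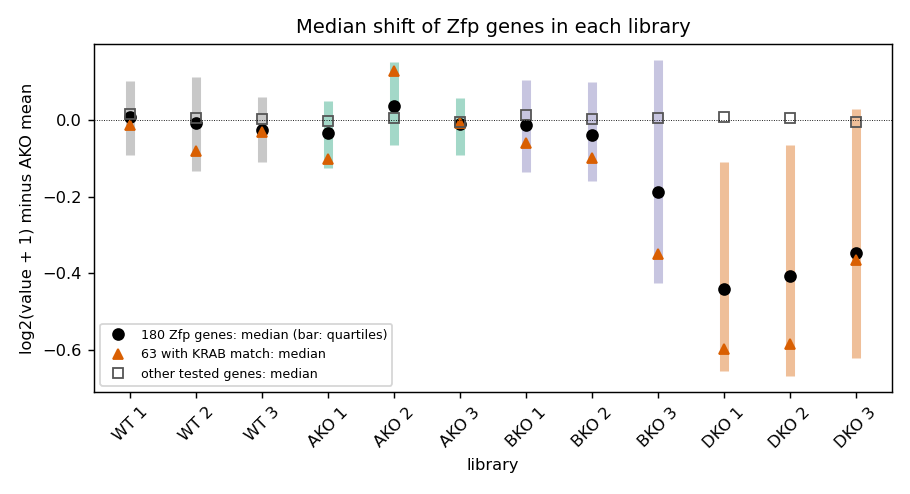
Median log2(value + 1) minus the AKO mean of the 180 Zfp genes (black points, bars from the lower to the upper quartile), of the 63 with a KRAB match (triangles) and of the other tested genes (squares) in each of the 12 libraries. The DKO medians lie at -0.44, -0.41 and -0.35, BKO replicate 3 lies at -0.19, and the squares stay near 0. The level of the squares largely follows from the scaling of the deposited values.

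Markers of cell types moved with the groups. Of 11 tested enterocyte markers 5 fell and none rose in DKO against AKO, and the 12 listed summed to 11112 to 15544 fpm in DKO, 16458 to 25831 in AKO, 21156 to 27041 in BKO and 20902 to 22635 in WT. Lct, which encodes lactase, was at 0 in some library. Fibroblast markers rose for 5 of 6, with sums of 714 to 1150 fpm in DKO, 292 to 421 in AKO, 276 to 395 in BKO and 223 to 320 in WT. Macrophage markers rose for 5 of 7, with sums of 397 to 637 fpm in DKO, 191 to 217 in AKO, 94.5 to 243 in BKO and 219 to 475 in WT. Markers of T and NK cells were called for 0 of 8 but summed to 15.2 to 27.5 fpm in DKO and 61.2 to 95.7 in AKO, with Cd3e, Cd3g, Cd2 and Klrd1 at 0 in some library. Of 10 markers of dividing cells 1 rose, with sums of 578 to 807 fpm in DKO and 516 to 763 in AKO. Smooth muscle markers were called for 0 of 6, and 1 of 5 endothelial and 1 of 6 neuronal and glial markers rose. In DKO against BKO 6 of 11 enterocyte markers fell, and fibroblast markers rose for 6 of 6, macrophage markers for 5 of 7, smooth muscle markers for 4 of 6, endothelial markers for 5 of 5 and neuronal and glial markers for 1 of 6; none of the B cell, T and NK cell or dividing cell markers was called. The part of these shifts in the changes of the Zfp genes that follow was not tested.

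The comparison of DKO with AKO asks what the loss of Rab11b adds where epithelial Rab11a is already deleted, and uses no WT library for its difference. The 2 groups also differed in remaining Rab11a RNA, at a mean of 106 fpm in DKO and 59.4 in AKO. The part of that difference in the changes was not tested. Of the 180 Zfp genes 81 passed an adjusted p of 0.05 in limma, 75 lower and 6 higher in DKO. Over all 13675 tested genes 32.2% were called, 17% lower and 15.3% higher. The median change of the Zfp genes was -0.38 (quartiles -0.60 and -0.11) and that of all tested genes 0.01. In 101 Zfp genes every DKO library lay below every AKO library and in 16 every DKO library lay above, against 27.9% and 25.2% of all tested genes. All 180 passed the filter on low values, which the WT level that chose them ensured. When each library was left out in turn, 32 of the 75 lower calls and 3 of the 6 higher calls (Zfp36, Zfp37 and Zfp7) were kept every time. The count was 46 without DKO replicate 2, 51 without AKO replicate 2 and at most 98, without BKO replicate 3. In that last fit 45.4% of all tested genes were called. The share over all tested genes in the other fits is not given here, so these counts are not read as a trait of the Zfp genes.

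The comparison of DKO with BKO asks what epithelial loss of Rab11a adds to a Rab11b null tissue, and shares the DKO libraries with the first comparison. It called 43 Zfp genes, 41 lower and 2 higher, against 23.0% of all tested genes, 12% lower and 11% higher. The median was -0.31 for the Zfp genes and 0.00 for all tested genes. DKO and BKO did not overlap for 70 genes lower in DKO and 7 higher, against 17.3% and 15.5% of all tested genes. This count rested on single libraries. It was 81 (74 lower, 7 higher) without BKO replicate 3, with 45.6% of all tested genes called. It was 6 without BKO replicate 1 and 18 without BKO replicate 2. It was 21, 17 and 25 without DKO replicates 1, 2 and 3, and 1 when the fit held only the groups compared. For these fits, too, the share over all tested genes is not given here. Scaling by total reads moved the median of all genes by 0.16 and left 13 calls, 9 lower and 4 higher. Over all tested genes that scaling called 967 lower and 2073 higher, where the main fit called 1646 lower and 1498 higher. The excess of lower calls among the Zfp genes in this comparison thus depended on the scaling. The 6 genes kept over every left-out library were Zfp445, Zfp629, Zfp646, Zfp652, Zfp687 and Zfp768, all lower.

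Across both comparisons 34 Zfp genes were called lower in each, 2 higher in each, 41 lower and 4 higher against AKO alone, 7 lower against BKO alone, and 92 in neither. Both comparisons share the DKO libraries, and 10.1% of all tested genes were called lower and 8.26% higher in each. No gene was called in opposite directions. The 7 called against BKO alone were Zfp142, Zfp318, Zfp324, Zfp329, Zfp524, Zfp553 and Zfp777. A call in 1 comparison and not the other does not show that the changes differ.

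**Figure D2:**
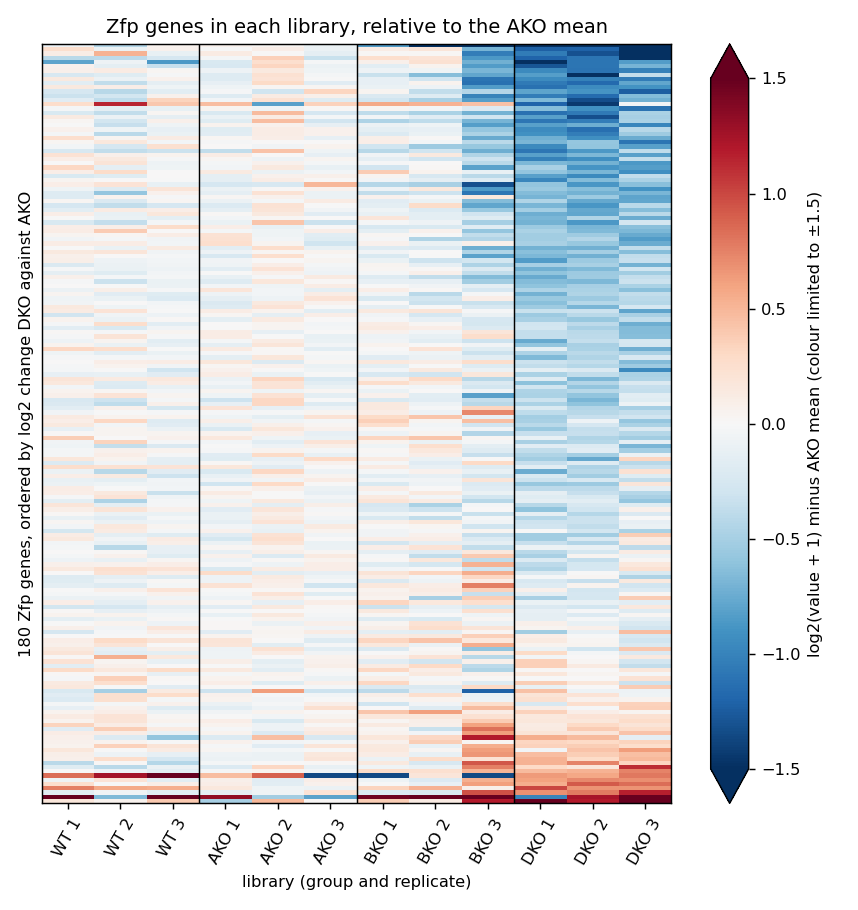
Each of the 180 Zfp genes (rows, ordered by log2 change in DKO against AKO) in each of the 12 libraries (columns) as log2(value + 1) minus the AKO mean, with colours limited to ±1.5. The order of rows follows from the AKO and DKO libraries themselves; BKO replicate 3 shows many of the colours of the DKO columns, while WT and the other BKO libraries stay pale.

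Both single deletions were compared with WT, whose level chose the genes, so these counts are given as a description. In AKO against WT limma called 0 Zfp genes, against 0.00731% of all tested genes (0.00731% lower, 0.0% higher), and 2 Zfp genes (1.11%) had an unadjusted p under 0.05, where 0.995% of all tested genes had. edgeR and DESeq2 called 0 as well. The groups did not overlap for 4 Zfp genes lower in AKO and 5 higher, against 4.78% and 3.71% of all tested genes, and the median Zfp gene changed by 0.01. In BKO against WT limma called 0 Zfp genes, against 0.0439% of all tested genes (0.0366% lower, 0.00731% higher); 12 (6.67%) had an unadjusted p under 0.05, where 10.7% of all tested genes had. Without overlap 23 Zfp genes (12.8%) were lower and 7 higher, against 7.68% and 9.58% of all tested genes. edgeR called 0 Zfp genes and DESeq2 called 1, Zfp939 (log2 change -1.51, adjusted p = 0.0124). In DKO against WT 73 were called, 67 lower and 6 higher, at a background of 31.8% (17.2% lower, 14.6% higher) and 99 were lower and 11 higher without overlap, against 29.5% and 25.5% of all tested genes. The count ranged from 32 without WT replicate 1 to 95 without BKO replicate 3, where 45.1% of all tested genes were called.

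By role, the first group is the KRAB genes. A KRAB match, here at least 6 of 8 letters of a conserved stretch of the KRAB A box in the protein translated from the GENCODE coding sequence, was found for 63 of the 179 genes with such a sequence. A protein without a match is not shown to lack the domain. Of the 63, 34 (54.0%) fell and 1 rose in DKO against AKO, with a median of -0.53. Of 111 C2H2 genes without a match, 40 (36.0%) fell and 4 rose, with a median of -0.30. Over all tested genes 17% fell and 15.3% rose. In DKO against BKO 11 of the 63 fell and none rose (38.1% had an unadjusted p under 0.05, as 37.6% of all tested genes had), and 29 of the 111 fell and 1 rose, with medians of -0.35 and -0.31. Lower calls were 17.5% and 26.1% of these classes against BKO, at the background of 12%. No test of the difference between these classes was made. With a looser match of at least 5 of 8 letters, 80 genes gave 40 lower and 2 higher calls against AKO, at a median of -0.49.

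**Figure D3:**
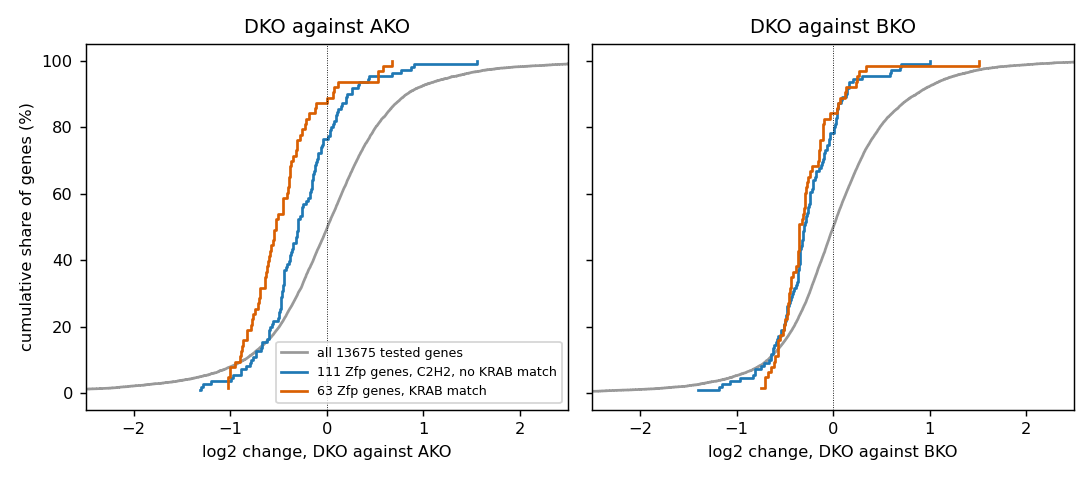
Cumulative share of genes (%) by log2 change on the log2(value + 1) scale in DKO against AKO (left) and DKO against BKO (right), for all 13675 tested genes (grey), 111 C2H2 Zfp genes without a KRAB match (blue) and 63 Zfp genes with one (orange). Both Zfp curves lie left of the grey curve through the middle of the range; the KRAB median is -0.53 on the left and -0.35 on the right.

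Of a list of 9 KRAB genes with a described role, 5 met the rule. Among these 5, 3 fell against AKO and none rose, with a median of -0.46, where 17% of all tested genes fell. Zfp445, which maintains imprinted methylation, read 56.9, 56.1 and 63.5 fpm in AKO and 38.2, 41.2 and 42.1 in DKO. It read 58.6, 56.5 and 52.8 in BKO and 59.1, 58.5 and 55.4 in WT, so all DKO libraries lay below the 9 others. The log2 change was -0.53 ± 0.09 (SE) against AKO (limma adjusted p = 0.00273) and -0.46 ± 0.09 against BKO (adjusted p = 0.00756), and both calls held over every left-out library.

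Zfp110, whose protein binds the neurotrophin receptor p75, read 30.1, 36.1 and 33.8 fpm in AKO, 16.4, 20.9 and 23.7 in DKO, 32.2, 30.1 and 28.8 in BKO and 34.1, 33.3 and 33.1 in WT. DKO did not overlap any other group. The change was -0.70 ± 0.14 against AKO (limma adjusted p = 0.00404) and -0.57 ± 0.14 against BKO (adjusted p = 0.0141, and 0.0573 without BKO replicate 1). Zfp809, which silences murine leukaemia proviruses, averaged 10 ± 0.904 fpm in AKO and 7.09 ± 1.38 in DKO (change -0.46, limma adjusted p = 0.0477), a call lost in 10 of the 12 fits that left out a library and in 5 of the other settings. Zfp568, a repressor of a placental Igf2 transcript, averaged 12 ± 0.251 in AKO and 17.9 ± 2.72 in DKO (change 0.53, adjusted p = 0.138, and 0.0220 without BKO replicate 3). Zfp961, which had no KRAB match here, averaged 13.9 ± 0.895 and 12.4 ± 2.80 (change -0.17, adjusted p = 0.566).

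Among the KRAB genes with the largest changes against AKO, Zfp707 read 5.26, 6.34 and 5.31 fpm in AKO and 2.42, 2.08 and 2.29 in DKO. BKO read 5.29, 5.35 and 3.12, with replicate 3 nearest to DKO, and WT 5.95, 6.18 and 5.78. The groups DKO and AKO did not overlap and the change was -1.02 ± 0.18 (limma adjusted p = 0.00258). Zfp963 averaged 4.88 ± 0.811 in AKO and 1.92 ± 0.106 in DKO (change -1.002, adjusted p = 0.00923). Both calls were kept over every left-out library. Zfp953 changed by -1.02 (adjusted p = 0.0131, and 0.0515 without AKO replicate 2) and Zfp182 by -1.001 (adjusted p = 0.0194, lost without AKO replicate 2, DKO replicate 1 or DKO replicate 2 at 0.0527 to 0.0711). Zfp433 changed by -1.02 (adjusted p = 0.0312); its DKO libraries spread from 1.74 to 6.77 fpm and the call was lost without any 1 AKO replicate or DKO replicate 2, at up to 0.0972. Zfp7 was the only gene with a KRAB match that rose: 8.42, 8.91 and 8.24 fpm in AKO, 12.2, 12.6 and 15.0 in DKO, 10.5, 10.2 and 12.6 in BKO and 8.52, 8.05 and 7.54 in WT. BKO and DKO overlapped, with a change of 0.58 ± 0.13 against AKO (adjusted p = 0.00863) and 0.24 ± 0.13 against BKO (adjusted p = 0.214).

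Of 25 tested genes of the corepressor machinery that KRAB proteins work through, 5 (20%) fell and none rose against AKO, with a median of -0.02. Over all tested genes 17% fell and 15.3% rose, so the share of the machinery that fell was near the background. Trim28, the corepressor itself, read 128, 97.2 and 115 fpm in AKO and 95.7, 135 and 98.7 in DKO, which overlap (change -0.06 ± 0.24, limma adjusted p = 0.876). The H3K9 methyltransferase gene Setdb1 changed by 0.11 ± 0.17 (adjusted p = 0.635). Those that fell were the DNA methyltransferase Dnmt3a (-0.50, adjusted p = 0.0173), the H3K9 methyltransferase Ehmt2 (-0.40, adjusted p = 0.0193), the deacetylase Hdac1 (-0.30, adjusted p = 0.0244), the Setdb1 partner Atf7ip (-0.65, adjusted p = 0.0312) and the remodeller Chd3 (-0.75, adjusted p = 0.0425). Each of these 5 calls was lost in at least 3 settings, with 1 AKO or DKO library left out.

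The second group is a list of 31 transcriptional regulators, most of them C2H2 proteins. Against AKO 15 (48.4%) fell, none rose and the median was -0.44, where 17% of all tested genes fell and 15.3% rose. Against BKO 9 (29.0%) fell and none rose, where 12% of all tested genes fell and 11% rose. Zfp652, whose human form represses with the corepressor CBFA2T3, read 20.6, 21.2 and 18.9 fpm in AKO and 12.1, 13.6 and 11.3 in DKO. BKO read 21.2, 20.0 and 22.8 and WT 17.6, 21.0 and 19.9. DKO lay below all 9 other libraries, BKO replicate 3 included. The change was -0.67 ± 0.12 against AKO (limma adjusted p = 0.00282) and -0.74 ± 0.12 against BKO (adjusted p = 0.00297), kept over every left-out library.

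Zfp362 read 14.8, 13.7 and 12.2 fpm in AKO, 6.01, 4.88 and 4.03 in DKO, 13.7, 13.7 and 6.09 in BKO and 14.7, 19.8 and 12.5 in WT. BKO replicate 3 lay just above the DKO libraries and far from its group. The change was -1.30 ± 0.28 against AKO (limma adjusted p = 0.00641) and -0.96 ± 0.28 against BKO, or -1.31 ± 0.20 without BKO replicate 3 (adjusted p = 0.0314 and 0.000471). Zfp467 averaged 16.4 ± 4.24 fpm in AKO, 15.5 ± 6.13 in BKO and 6.10 ± 1.12 in DKO, with changes of -1.28 ± 0.29 and -1.15 ± 0.29 (adjusted p = 0.00769 and 0.0170). Against BKO, the Zfp362 call was lost without BKO replicates 1 or 2 or DKO replicates 2 or 3, at up to 0.121, and the Zfp467 call without BKO replicates 1 or 2 or DKO replicate 3, at up to 0.0711.

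Zfp148, which binds GC-rich promoters, read 65.3, 80.0 and 72.9 fpm in AKO, 51.4, 48.8 and 55.7 in DKO, 71.3, 66.6 and 60.7 in BKO and 75.1, 68.0 and 73.3 in WT. DKO lay below every other library. The change was -0.48 ± 0.11 against AKO (limma adjusted p = 0.00853, kept over every left-out library) and -0.34 ± 0.11 against BKO (adjusted p = 0.0436, lost in 8 of the 12 fits that left out a library). Zfp704 averaged 33.2 ± 7.42 in AKO and 16.3 ± 2.69 in DKO (change -0.97, adjusted p = 0.00445). Zfp687, a partner of the chromatin reader Zmynd8, fell by 0.45 against AKO (adjusted p = 0.0235) and by 0.62 against BKO (adjusted p = 0.00770). Zfp574 changed by -0.48 (adjusted p = 0.0339) and Zfp91, an E3 ubiquitin ligase of the noncanonical NF-kB pathway, by -0.31 (adjusted p = 0.0372). The call against AKO was lost without AKO replicates 1 or 3 or DKO replicate 3 for Zfp687 (up to 0.0920), without WT replicate 1, AKO replicates 1 or 2 or DKO replicate 3 for Zfp574 (up to 0.107), and without any WT, AKO or DKO replicate for Zfp91 (up to 0.129).

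Zfp318, needed in B cells for the choice of immunoglobulin D transcripts, was called against BKO alone. It read 13.9, 13.4 and 12.6 fpm in BKO, 3.39, 2.73 and 8.78 in DKO, 12.9, 4.75 and 11.8 in AKO and 11.1, 21.3 and 12.3 in WT. DKO and BKO did not overlap, while AKO replicate 2 lay within the DKO range. The change was -1.40 ± 0.41 against BKO (limma adjusted p = 0.0330, lost without BKO replicates 1 or 2 or DKO replicates 1 or 2, at up to 0.121) and -0.89 ± 0.41 against AKO (adjusted p = 0.119, or 0.0398 without AKO replicate 2 and 0.0336 without DKO replicate 3). Summed B and plasma cell markers ranged from 3.45 to 21.5 fpm in BKO, 16.997 to 23.1 in DKO, 15.8 to 94.1 in AKO and 50.3 to 519 in WT, highest in WT replicate 2; their part in the result was not tested.

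The third group is 10 genes that act on RNA or ribosomes. Against AKO 2 of them (20%) rose, where 15.3% of all tested genes did, and none fell; 8 had a change above 0 and 2 below it, with a median of 0.21. Against BKO 1 rose and none fell, 6 changes lay above 0 and 4 below, and the median was 0.02. Zfp36 read 97.0, 83.5 and 81.7 fpm in AKO and 175, 139 and 139.9 in DKO. It read 110.0, 126 and 91.6 in BKO and 148, 129.7 and 127 in WT. DKO lay above AKO and BKO in every library and overlapped WT, and AKO lay below WT in every library. The change was 0.78 ± 0.14 against AKO (limma adjusted p = 0.00297, kept over every left-out library) and 0.47 ± 0.14 against BKO (adjusted p = 0.0358, lost in 6 of the 12 fits that left out a library, at up to 0.117, and 0.0496 without BKO replicate 3). Against WT it was 0.16 ± 0.14 (adjusted p = 0.408).

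Zfp593, whose human form takes part in maturation of the large ribosomal subunit, read 6.39, 6.77 and 8.33 fpm in AKO and 12.1, 12.9 and 17.2 in DKO. BKO read 6.03, 5.97 and 14.8, with replicate 3 inside the DKO range, and WT 6.28, 6.84 and 6.26. The change was 0.88 ± 0.28 against AKO (limma adjusted p = 0.0373), a call lost without any AKO or DKO replicate or without WT replicates 1 or 3, at up to 0.117. Against BKO it was 0.70 ± 0.28 (adjusted p = 0.0991), and 1.09 ± 0.17 without BKO replicate 3 (adjusted p = 0.000560).

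The other 8 of this group were not called against AKO. The splicing and elongation factor Zfp326 changed by 0.43 (adjusted p = 0.0867 in limma, 0.00908 without BKO replicate 3) and the RNA-binding Zfp106 by -0.32 (adjusted p = 0.0718, 0.0141 without BKO replicate 3). Zfp598, the ubiquitin ligase of collided ribosomes, changed by 0.21 (adjusted p = 0.300) and Zfp622, a factor of large subunit maturation, by 0.16 (adjusted p = 0.384). Zfp330 changed by 0.34, Zfp346 and Zfp830 by 0.20 each and Zfp706 by -0.25, at adjusted p of 0.118 to 0.323. Zfp207, a spindle assembly and Bub3-binding protein, changed by 0.27 ± 0.17 against AKO (adjusted p = 0.257) and 0.05 ± 0.17 against BKO (adjusted p = 0.845).

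Of the other genes around Zfp36, its family and the decay machinery, 17 were tested. Against AKO 3 (17.6%) fell and 2 (11.8%) rose, near the 17% and 15.3% of all tested genes. Xrn1, the 5′ to 3′ exonuclease, read 31.0, 35.9 and 40.1 fpm in AKO, 13.3, 11.3 and 8.78 in DKO, 33.7, 34.3 and 14.0 in BKO and 31.0, 26.6 and 36.0 in WT. DKO lay below every other library, BKO replicate 3 the closest (change -1.61 ± 0.30 against AKO, limma adjusted p = 0.00324). Cnot1, the scaffold of the deadenylase complex, fell by 0.48 (adjusted p = 0.00810) and the decapping enzyme Dcp2 by 0.39 (adjusted p = 0.0349). Mapkapk2, the kinase that phosphorylates Zfp36 protein, rose by 0.32 (adjusted p = 0.0201) and the deadenylase Cnot6 by 0.35 (adjusted p = 0.0266). Without 1 AKO or DKO library the Dcp2, Mapkapk2 and Cnot6 calls could be lost, and the Xrn1 and Cnot1 calls were not. The relatives Zfp36l1 and Zfp36l2 changed by 0.39 and 0.26 (adjusted p = 0.242 and 0.179).

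**Figure D4:**
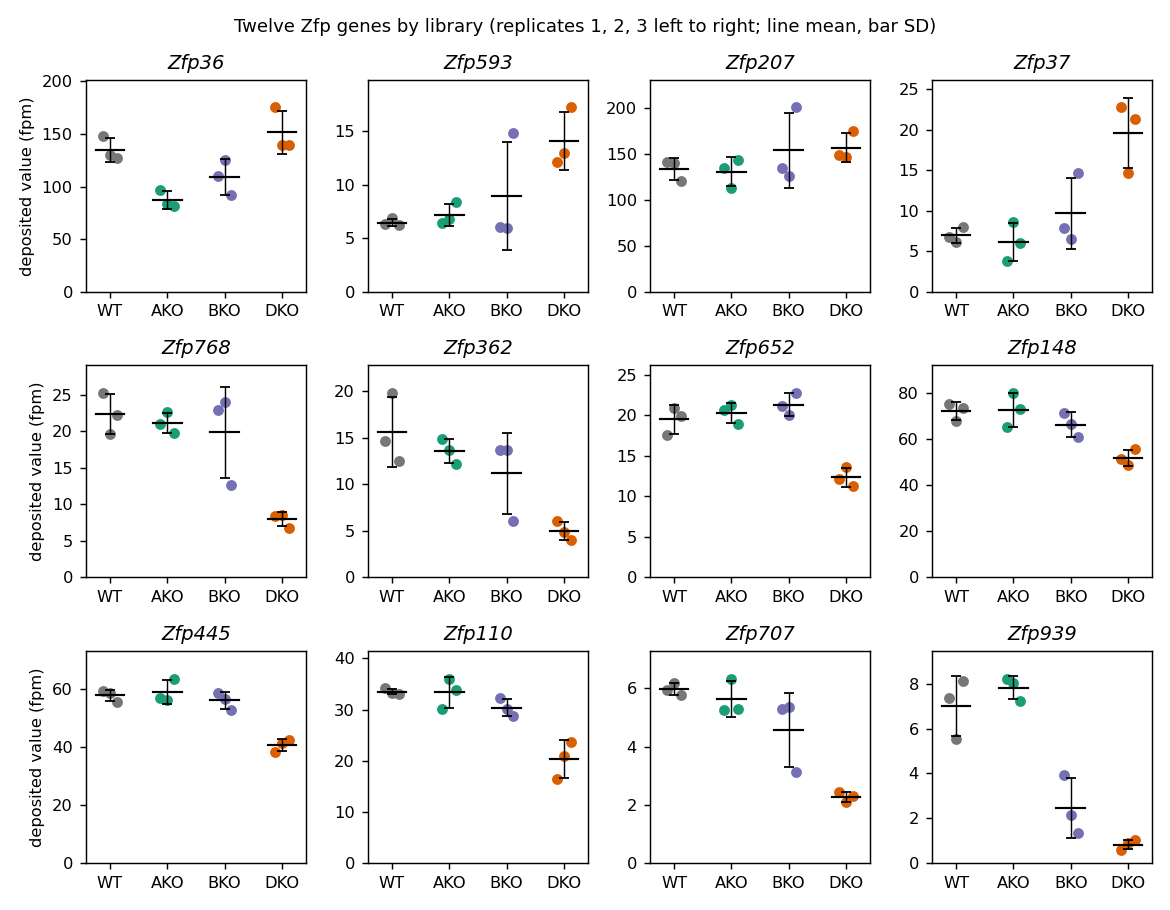
Deposited value (fpm) of 12 Zfp genes by library, replicates 1 to 3 from left to right within WT, AKO, BKO and DKO, with the mean (line) and SD (bar, n = 3). Zfp36, Zfp593 and Zfp37 are higher in DKO than in AKO, Zfp207 is not called, and the others are lower in DKO; BKO replicate 3 lies toward DKO for Zfp593, Zfp37, Zfp768, Zfp362 and Zfp707.

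Outside these lists 133 genes remained, of which 57 (42.9%) fell and 4 (3.01%) rose against AKO, where 17% and 15.3% of all tested genes did. Zfp939 showed the lowest change, at 8.23, 8.01 and 7.24 fpm in AKO and 0.582, 0.871 and 1.01 in DKO. BKO read 3.94, 2.14 and 1.32 and WT 7.38, 5.52 and 8.13. AKO and WT overlapped, every BKO library lay below both, and every DKO library lay below BKO. The change was -2.28 ± 0.25 against AKO (limma adjusted p = 0.000357, kept over every left-out library) and -0.87 ± 0.25 against BKO (adjusted p = 0.0316, lost without BKO replicates 1 or 2 or any DKO replicate, at up to 0.106). BKO against WT was -1.26 ± 0.25 (adjusted p = 0.261, or 0.0450 without BKO replicate 1).

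Zfp768, whose human form binds repeat elements, read 21.0, 22.6 and 19.7 fpm in AKO, 8.44, 8.52 and 6.82 in DKO, 22.9, 24.0 and 12.7 in BKO and 25.2, 19.7 and 22.2 in WT. DKO lay below every other library and BKO replicate 3 between. The change was -1.31 ± 0.22 against AKO (limma adjusted p = 0.00190) and -1.18 ± 0.22 against BKO (adjusted p = 0.00470), or -1.46 ± 0.14 without BKO replicate 3 (adjusted p = 2.42e-05). Zfp239 averaged 11 ± 2.02 in AKO and 4.31 ± 1.47 in DKO (change -1.20, adjusted p = 0.0149, lost without AKO replicate 2 at 0.0543 and without DKO replicate 1 at 0.0539). Its WT libraries, at 5.87, 10.3 and 5.54 fpm, overlapped DKO. Zfp629 read 12.7, 11.7 and 12.4 in AKO, 7.52, 6.09 and 5.17 in DKO, 12.6, 11.9 and 10.5 in BKO and 12.1, 11 and 11.3 in WT, with DKO below every other library. Its change was -0.88 ± 0.14 against AKO (adjusted p = 0.00186) and -0.81 ± 0.14 against BKO (adjusted p = 0.00424).

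The genes that rose outside the lists were Zfp7, described above, Zfp37, Zfp511 and Zfp275. Zfp37 read 3.85, 8.60 and 5.96 fpm in AKO, 22.7, 14.7 and 21.3 in DKO, 7.88, 6.48 and 14.7 in BKO and 6.73, 6.11 and 7.99 in WT. Every DKO library lay above AKO and WT, with BKO replicate 3 beside the lowest DKO library. The change was 1.56 ± 0.31 against AKO (limma adjusted p = 0.00453, kept over every left-out library) and 1.00 ± 0.31 against BKO (adjusted p = 0.0408, lost in 8 of the 12 fits that left out a library, at up to 0.137, and 0.00313 without BKO replicate 3). Zfp511 changed by 0.77 ± 0.20 (adjusted p = 0.0159, lost without AKO replicate 2 or DKO replicate 2, at up to 0.0610) and Zfp275 by 0.67 ± 0.19 (adjusted p = 0.0232, lost without AKO replicates 1 or 2 or DKO replicates 2 or 3, at up to 0.0798).

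Some genes scattered too widely within groups to compare. Zfp791 read 10.6, 1.17 and 11.7 fpm in WT and 0.727, 7.12 and 18.2 in DKO. Zfp781 read 3.59, 5.08 and 6.89 in WT and was listed at 0 in AKO replicate 3 and BKO replicates 1 and 3. These genes were chosen for naming after their values were seen.

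BKO replicate 3 lay on the DKO side for most genes called, Zfp or not. Of the 75 genes that fell in DKO against AKO, 64 (85.3%) were lower in BKO replicate 3 than in the mean of BKO replicates 1 and 2, with a median difference of -0.31 over the 75. Over all genes called in DKO against AKO, 82.7% lay on the DKO side in that library. BKO replicate 3 was not used for the AKO and DKO means, but it entered the estimate of spread: without it DKO against AKO called 98 Zfp genes, 88 lower and 10 higher, with 45.4% of all tested genes called.

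Members also shared features that the rule did not use. Translated proteins with a KRAB match had a median of 12 C2H2 finger matches and those without had 9. Across the 179 genes with a translated sequence, the change in DKO against AKO had a Pearson r of -0.25 and a Spearman rho of -0.29 with the number of fingers. With the log2 mean level over 12 libraries the values were 0.20 and 0.23 over 180 genes. These are descriptions over genes of the same libraries, which are not independent. By number of fingers, 10 of 38 genes with 1 to 5 (26.3%) fell, 24 of 56 with 6 to 10 (42.9%), and 40 of 79 with 11 or more (50.6%). Over all tested genes 17% fell. By level, 33 of 66 genes with a mean under 10 fpm (50%) fell, 27 of 77 with 10 to 25 (35.1%), and 15 of 37 with 25 or more (40.5%). Of all tested genes, 12.4% fell at a mean of 5 to 10 fpm, 16.3% at 10 to 25 and 22.5% at 25 or more. This mean includes the DKO libraries, so a fall in DKO itself lowers it, in these classes and in the correlations with level. Genes with a low mean were kept only where WT reached 5, and the class under 10 fpm has no lower bound. Its share is therefore not like for like with that of all tested genes at 5 to 10 fpm.

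**Figure D5:**
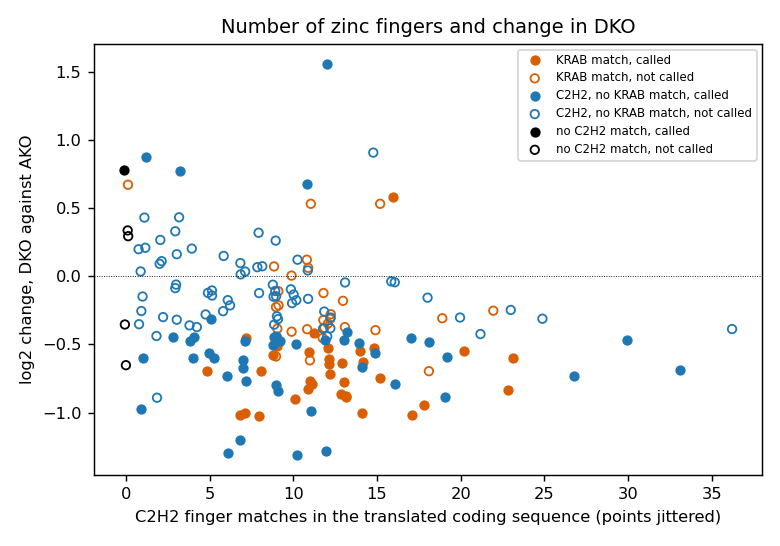
Log2 change in DKO against AKO on the log2(value + 1) scale by the number of C2H2 finger matches in the translated coding sequence, 1 point per Zfp gene, filled where limma called it. Orange points have a KRAB match, blue points do not, and black points have no C2H2 match; the Spearman rho over 179 genes is -0.29, with wide scatter at every finger number.

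By place in the genome, 40 of the genes lay on chromosome 7, 27 on chromosome 17, 16 on chromosome 8 and 12 on chromosome 13. Against AKO 18 (45%) fell and 2 rose on chromosome 7, and 12 (44.4%) fell on chromosome 17. On chromosome 8, 6 (37.5%) fell, and on chromosome 13, 6 (50%) fell. None rose on these last 3 chromosomes. The other 85 genes gave 33 lower (38.8%) and 4 higher calls. Of all 180 Zfp genes 41.7% fell, and of all tested genes 17% fell and 15.3% rose. In the RefSeq gene order 83 genes had another Zfp gene of the 180 within 3 genes. Runs of at least 4 such neighbours numbered 7 and held 33 genes. In the chromosome 13 run from Zfp58 to Zfp65 all 5 genes fell, by log2 changes of -0.83 to -0.55. In the chromosome 17 run from Zfp54 to Zfp948 none of 4 was called (median -0.31). Close copies within such runs can share reads, and how reads with several matches were counted is not given in the sources used here, so the split between neighbours is uncertain.

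A further run on chromosome 17, from Zfp871 to Zfp563, lies 18 to 27 genes from Rab11b, the gene that is null in BKO and DKO. Of its 7 genes 6 fell against AKO, with a median of -0.57, where 41.7% of the 180 Zfp genes and 17% of all tested genes fell. Zfp563 read 5.95, 6.38 and 6.40 fpm in AKO, 2.33, 2.76 and 2.88 in DKO, 5.75, 5.86 and 3.05 in BKO and 7.01, 6.77 and 5.95 in WT. BKO replicates 1 and 2 lay close to AKO and replicate 3 close to DKO. The change was -0.99 ± 0.20 against AKO (limma adjusted p = 0.00488).

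Along the rest of that run Zfp799 changed by -0.79 against AKO (limma adjusted p = 0.00601), Zfp763 by -0.64 (0.0133), Zfp871 by -0.57 (0.00999), Zfp870 by -0.50 (0.0316) and Zfp952 by -0.45 (0.0208). Of these, Zfp763 lost its call without DKO replicate 2, Zfp870 without AKO replicates 2 or 3 or any DKO replicate, and Zfp952 without any AKO replicate or DKO replicate 2. Zfp472 changed by -0.28 (adjusted p = 0.266). Nearer to Rab11b, Zfp414 at 4 genes changed by 0.33 (adjusted p = 0.190) and Zfp101 at 8 genes by -0.32 (adjusted p = 0.362, or 0.0391 without DKO replicate 3). In BKO against WT none of these 9 was called. Only 0.0439% of all tested genes were, so this cannot show whether these genes differ. DKO and BKO are both Rab11b null, and between them Zfp563 changed by -0.65. That call was lost in 11 of the 12 fits that left out a library. Without BKO replicate 3 the changes against BKO ran from -0.90 (Zfp563) to -0.01 (Zfp472) along the run. Zfp414 then changed by 0.32 and Zfp101 by -0.33. The part of nearness to Rab11b in these changes was not tested.

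The Zfp genes left below the threshold and relatives with other names gave a comparison. Of 106 tested Zfp genes with a WT mean under 5, 18 (17%) fell and 6 (5.66%) rose against AKO, with a median of -0.22. The share that fell equalled that of all tested genes, of which 15.3% rose. All tested genes cover every level, and their share that fell was 12.4% at a mean of 5 to 10 fpm and 22.5% at 25 or more. The low WT level that chose the 106 also bears on their share. Equal shares therefore do not show that they behaved as other genes of their level did. Without overlap 41 of the 106 (38.7%) were lower in DKO and 10 higher, against 27.9% and 25.2% of all tested genes. Of the 3 just outside, Zfp937 and Zfp59 fell by 0.92 (limma adjusted p = 0.00354) and 0.79 (adjusted p = 0.00515), and Zfp831, whose libraries scattered, changed by -0.93 (adjusted p = 0.279). Of 55 tested Zbtb, Zkscan and Zscan genes, a set chosen after values were seen, 14 (25.5%) fell and 2 rose, with a median of -0.25.

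The combination of both deletions was also set against the sum of the single ones, in the contrast DKO minus AKO minus BKO plus WT. Since it uses the WT libraries that chose the genes, its calls are a description: 3 Zfp genes, 1 higher and 2 lower, at a background of 3.96% (2.08% higher, 1.88% lower). The genes were Zfp36, Zfp629 and Zfp652, and 47 of the 180 (26.1%) had an unadjusted p under 0.05, near the 23.9% of all tested genes. These shares take no account of direction. The median contrast was -0.34 for the Zfp genes, with 145 of 180 below 0. For all tested genes it was 0.02, with 6578 of 13675 below 0. Without BKO replicate 3 the count was 44 (24.4% of the 180), 38 lower and 6 higher. In that fit 30.6% of all tested genes were called. The count was 0 without BKO replicate 1, AKO replicate 2 or any WT replicate.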

How the data were processed

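RNA of whole mouse jejunum was sequenced from TruSeq libraries, per the labels' protocols. The submitters' processing notes name FastQC 0.11.3, Trimmomatic 0.36, DESeq2 and build mm9; the sources used here give no counter, annotation, strand setting or rule for multiply matching reads. The authors deposited a signal table of fpm values, counts per gene divided by a factor per library with no length term. The kit does not mark strand, so reads of a gene and an antisense partner cannot be told apart. Whole reads were recovered for 100% of values within 0.001 reads.

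Tests ran in limma 3.58.1 (R 4.3.3) on log2(value + 1), with a trended prior, over the 13675 genes that reached 1 in 3 or more of the 12 libraries, with 1 coefficient per group, so that all 4 groups share the estimate of spread. A call is a Benjamini-Hochberg adjusted p under 0.05 over all tested genes. Fold changes understate low genes on this scale. edgeR 4.0.16 and DESeq2 1.42.0 on the recovered reads, other scalings, pseudocounts, filters and thresholds, and each library left out in turn were alternatives. Scripts were tested on simulated data.

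The Zfp genes and all gene lists were chosen with earlier results of these data known. Named genes were all measured genes of the RNA, spindle and KRAB target lists, the 10 with the largest change each way against AKO and 5 against BKO, calls of the other comparisons, genes next to the threshold or within 60 genes of Rab11b, up to 8 transcription genes called in both comparisons, and up to 6 called genes of each machinery list. Finger and KRAB matches come from GENCODE vM21 coding sequences (179 of 180 genes), in place of the RefSeq proteins planned. Chromosome and gene order come from the RefSeq table (GRCm38.p6), 179 genes by symbol and 1 by synonym; it gives no coordinates here, since the authors' build differs.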

Additional observations from a re-analysis of the deposited data

Results flagged for a closer look

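Zfp36, Zfp629 and Zfp652 were picked out because DKO differed from the sum of both single deletions by the limma test of that difference itself. The contrast was 1.095 on the log2 scale for Zfp36 (adjusted p = 0.0206), -0.90 for Zfp629 (adjusted p = 0.0417) and -0.80 for Zfp652 (adjusted p = 0.0361). For Zfp36 the mean was 135 fpm in the 3 WT libraries, 87.4 in those of AKO, 109 in those of BKO and 151 in those of DKO, so both single deletions lay below WT and DKO above them. Zfp629 and Zfp652 had means of 11.5 to 12.3 and 19.5 to 21.3 fpm in the other 3 groups, and 6.26 and 12.3 fpm in DKO. Leaving out 1 library at a time ended the call in 5 of 12 fits for Zfp36, 10 of 12 for Zfp629 and 11 of 12 for Zfp652, at adjusted p of up to 0.0623, 0.0989 and 0.0908. The contrast uses the WT libraries whose mean chose the genes.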

How the results depend on the processing

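The count of Zfp genes called in DKO against AKO stayed within 1.5 times of 81 under every pseudocount, filter, scaling and tool tried (76 by edgeR, 87 by DESeq2). It was 45 with a WT mean of at least 10, where fewer genes are counted, and ranged from 46 to 98 over left-out libraries. DKO against BKO gave 13 with scaling by total reads, 1 with only the groups compared, 79 without BKO replicate 3 and WT replicate 2 together, and 6 to 81 over left-out libraries. DKO against WT gave 32 to 95 over left-out libraries. AKO against WT gave 0 throughout, and BKO against WT gave 1 by DESeq2 and 0 to 1 over left-out libraries. The interaction gave 1 with total reads, 8 with quantile scaling, 16 by DESeq2, 32 without BKO replicate 3 and WT replicate 2, and 0 to 44 over left-out libraries. The causes were not tested. Scaling by total reads moved the share of higher calls over all genes from 47.6 to 68.2% in DKO against BKO and from 52.5 to 67.2% in the interaction. The median change of the Zfp genes, an alternative chosen after seeing the data, was -0.27 against AKO and -0.23 against BKO with a pseudocount of 5, and -0.16 against BKO with total reads. Over 61 named genes no setting reversed a direction, 122 values lost and 14 gained a call, and 1327 did neither.

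Samples share replicate numbers only: the correlations of same-numbered deviations ran from -0.30 to 0.18, with 4 of 18 pairs over 0.1. A replicate block gave 71 calls against AKO, 32 against BKO and 60 against WT for DKO, and 1 in the interaction. With 3 libraries a group, a missed threshold does not show that levels were equal.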
